A study of Mus musculus with 5 samples.

Results

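The ion channel genes described here are the 93 genes, of 12393 genes named on the array, whose symbols begin with Kcn, Cacn or Scn and go on with the letters and number of a potassium, calcium or sodium channel subunit. They were read by 136 of 22626 probe sets, each listed with 1 gene, and each gene was represented by its probe set with the highest mean signal over the arrays. Cacna1s, the epithelial sodium channel genes Scnn1a, Scnn1b and Scnn1g, and Scnm1, which codes for a splicing factor, were left out. The samples were total RNA pooled from several whole C57BL/6 mice aged 1 day, total RNA pooled from the colons of several C57BL/6 mice aged 8 weeks, and mixtures of these pools in which colon made up 25%, 50% or 75% of the RNA. The labels name no transgene and no treatment. Each of the 5 RNAs was measured on 1 array from 10 ng, after 2 rounds of T7 amplification, so no mix has a replicate. Tissue and age changed together between the pools and cannot be told apart. RNA of a whole newborn also holds that of its own gut.

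Potassium channels set the resting voltage of nearly every cell and, in transporting epithelia, recycle potassium and keep up the electrical force for chloride secretion and sodium uptake. Voltage-gated sodium and calcium channels are the machinery of excitable cells: sodium channels carry the upstroke of the action potential in nerve and muscle, and calcium channels couple it to contraction or transmitter release. Most of these channels are built from a pore-forming subunit that determines which ion passes, together with auxiliary subunits that change gating, pharmacology or traffic to the membrane. In the colon the genes are known from several cell layers, among them crypt and surface epithelium, smooth muscle and the neurons of the gut wall.

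Few of the channel genes differed along the dilution. The log2 signal of every probe set was regressed on the colon share with limma, and "rose" or "fell" is used below for a change with rising colon share at an adjusted p under 0.05. Of the 93 genes, 5 rose (5.38%), against 9.8% of all genes, and 8 fell (8.6%), against 14.5% of all genes. The rises were those of Kcnk5, Kcnk1, Kcnq1, Kcnn4 and Kcnmb1, all potassium channel genes, which make up 62 of the 93, so that 8.06% of them rose. None of 22 calcium and 9 sodium channel genes rose, and the difference between the families was not tested. Of the 8 that fell, 4 were potassium channel genes (Kcne1l, Kcnmb4, Kcnc4 and Kcnk2), 3 calcium channel genes (Cacng1, Cacna2d3 and Cacna1g) and 1 a sodium channel gene (Scn3b). Between the undiluted arrays, 6 genes were at least 2-fold higher in colon (9.26% of all genes were) and 7 at least 2-fold higher in whole mouse (10.4% of all genes were). The median fitted difference, colon minus whole mouse, was −0.07 log2 over the 93 genes and −0.01 over all genes.

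Many of the probe sets were dim. Only 27 of the 93 (29%) exceeded the median of all signals, 6.88 log2, on any array, against 68.6% of all genes. All 13 genes that rose or fell were among these 27, but a gene can pass such a limit through the pool in which it is high, so the limit and the change are not independent. For the 66 dimmer genes the small differences below describe dim signals and do not show equal expression. The arrays had similar medians, between 6.83 and 6.92 log2. When each array was centred on its median, the share of rises among all probe sets called went from 44.3% to 57.5%, while the channel genes then counted 5 rises and 9 falls.

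**Figure D1:**
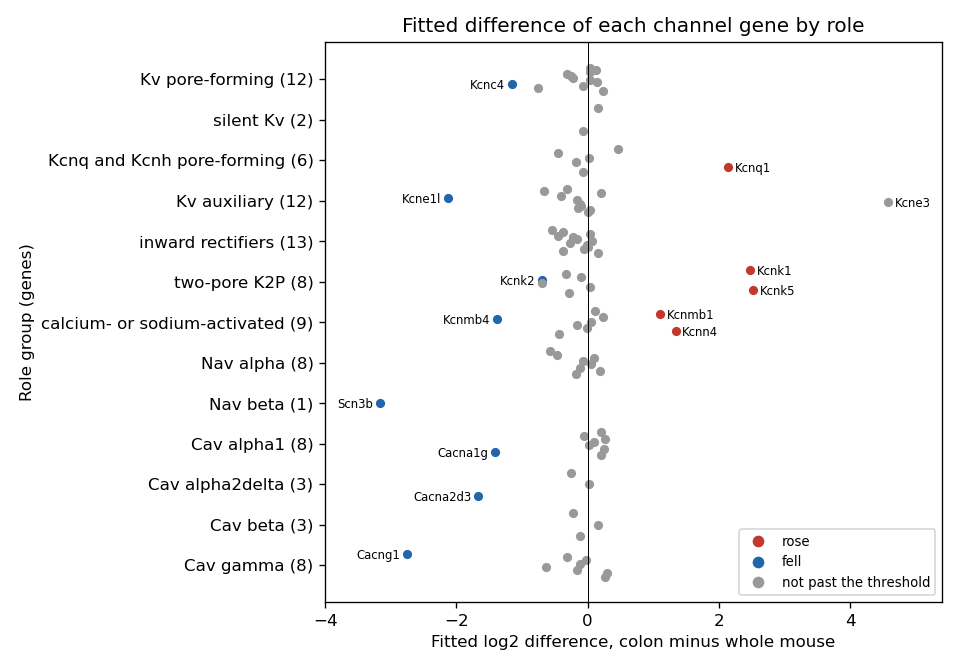
Fitted log2 difference (colon minus whole mouse) of the 93 channel genes, 1 point per gene, in rows by role with the number of genes in brackets; red points rose, blue points fell and grey points did not pass the threshold. Most points lie close to 0, Kcne3 (4.58, not past the threshold) lies farthest to the right, and Scn3b (−3.17) and Cacng1 (−2.75) lie farthest to the left.

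The potassium channel of the colonic crypt, made of the pore Kcnq1 and its partner Kcne3, gave some of the widest differences of the family. Kcnq1 codes for the voltage-gated pore that, in intestinal epithelium, sits in the basolateral membrane and supports chloride secretion. Its log2 signals were 7.40 in whole mouse, 8.72 at 25% colon, 9.13 at 50%, 9.62 at 75% and 9.62 in colon. The signal was lowest in whole mouse and had reached the colon level at 75% colon. The undiluted arrays lay 4.67-fold apart, and the fitted difference was 2.14 log2 (SE 0.42, limma adjusted p = 0.0299). The call held in none of the fits that left out 1 array, and the adjusted p became 0.0708 on dropping whole mouse, 0.0513, 0.0741 and 0.103 on dropping the mixtures with 25%, 50% and 75% colon, and 0.064 on dropping colon.

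Kcne3 codes for the single-span auxiliary subunit that holds Kcnq1 channels open at resting voltages in epithelia. Its signals were 4.94 in whole mouse, then 9.24, 9.75, 10.22 and 10.18 log2 from the 25% mixture to colon. Whole mouse stood alone at the bottom, and the 4 arrays with colon RNA lay within about 1 log2 unit of one another. Colon was 37.7-fold above whole mouse, the widest gap among the 93 genes. The fitted difference was 4.58 log2 (SE 1.48) and did not pass (adjusted p = 0.095). Without the whole mouse array the fitted difference was 1.31 log2. The line was fitted to log2 signals, while RNA amounts mix on the linear scale, and the resulting curvature enters the SE. The mixtures with 25%, 50% and 75% colon also stood 0.96, 0.54 and 0.44 log2 above linear mixing of the undiluted intensities. Missing the threshold therefore does not make the 37.7-fold gap a small one, though that gap rests on 1 array of each pool. The probe set was the gene's only one, and no other channel gene with a gap of 2-fold or more between the undiluted RNAs missed the threshold.

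The other Kcnq and Kcnh genes gave no such difference. Among the other 5 genes of the Kcnq and Kcnh pores (Kcnq5, Kcnh1, Kcnh2, Kcnh3 and Kcnh7) the fitted differences ran from −0.45 to 0.46 log2 and none passed. Kcnh2, whose channel repolarises the heart, went from 7.87 in whole mouse to 7.38 log2 in colon, with an adjusted p of 0.213. The brightest probe set of the group, that of Kcnh3, held between 8.14 and 8.55 on the 5 arrays (adjusted p = 0.969).

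Both two-pore potassium channels that rose are leak channels, open at rest, and theirs were the steepest of the fitted rises that passed. Kcnk5, a leak channel opened by alkaline pH outside the cell, had log2 signals of 6.50 in whole mouse, 7.99, 8.62 and 8.91 in the mixtures and 9.19 in colon. Each step of added colon RNA raised the signal. The fitted difference was 2.52 log2 (SE 0.45, adjusted p = 0.0248), and the undiluted arrays lay 6.46-fold apart. Kcnk1, a leak channel of low activity found in many epithelia, had 7.44, 9.40, 9.67, 9.94 and 10.26 in the same order. More than 1 log2 unit of its rise came with the first 25% of colon RNA, and the later steps were small. It rose by 2.47 log2 (SE 0.60, adjusted p = 0.0494), and colon was 7.05-fold above whole mouse. The other probe set of Kcnk1 rose as well (1.73 log2, adjusted p = 0.00973). That of Kcnk5, at 5.16 in whole mouse and 5.75 in colon, did not pass (0.79 log2, adjusted p = 0.0598).

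Both calls were lost on leaving out the 50% mixture (adjusted p = 0.0587 for Kcnk5 and 0.105 for Kcnk1), the 75% mixture (0.0919 and 0.139) or the colon array (0.078 and 0.138). Kcnk2, a leak channel opened by stretch and by lipids, went the other way, with 7.67 in whole mouse and 7.51, 7.26, 7.09 and 7.01 towards colon. Its signal was lower at each step, by a small amount. It fell by 0.69 log2 (SE 0.10, adjusted p = 0.0164), a call lost without the whole mouse array (0.0684), the 75% mixture (0.0638) or the colon array (0.066). None of the other 5 two-pore genes (Kcnk3, Kcnk4, Kcnk7, Kcnk10 and Kcnk13) passed. Among these, Kcnk3, an acid-sensitive leak channel, gave 7.58 for whole mouse against 6.72 for colon (adjusted p = 0.0757), and the group's differences ran from −0.69 to 0.04 log2. The dimmer probe sets of Kcnk3 had fitted differences of the other sign, 0.10 and 0.25 log2.

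Kcnn4 codes for the intermediate-conductance channel that calcium opens through calmodulin, known in gut epithelium as the potassium exit for calcium-driven secretion and also in blood cells. Its log2 signals were 9.30 in whole mouse, 9.84, 10.25 and 10.48 in the mixtures and 10.65 in colon. The signal was higher at each step, with the wider steps at the whole mouse end. It rose by 1.34 log2 (SE 0.17, adjusted p = 0.011, undiluted arrays 2.56-fold apart), and its other probe set rose by 1.15 log2 (adjusted p = 0.0126). The call of the brightest probe set was lost without the 75% mixture (0.0545). The small-conductance relatives Kcnn1, Kcnn2 and Kcnn3, known from neurons and muscle, lay between 5.56 and 6.26 log2 on all arrays, with fitted differences of 0.05, −0.16 and −0.01, and did not pass.

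Epithelial markers moved with these genes. All 9 genes of a list of colonocyte markers were at least 2-fold higher in colon (9.26% of all genes were). Of the 9, 3 rose (33.3%, against 9.8% of all genes). Their summed linear intensity went from 3775 in whole mouse to 36159 at 25% colon and 53521 in colon. Of 6 hormone cell markers Chgb, Gcg and Pyy rose (50%) and Ins2 fell (16.7%, against 14.5% of all genes). The hormone cell markers had a summed intensity of 2327 in whole mouse and 8085 in colon. The part of these cells in the channel signals was not tested. In RNA of whole organs, fewer cells of a type and less RNA per cell cannot be told apart.

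**Figure D2:**
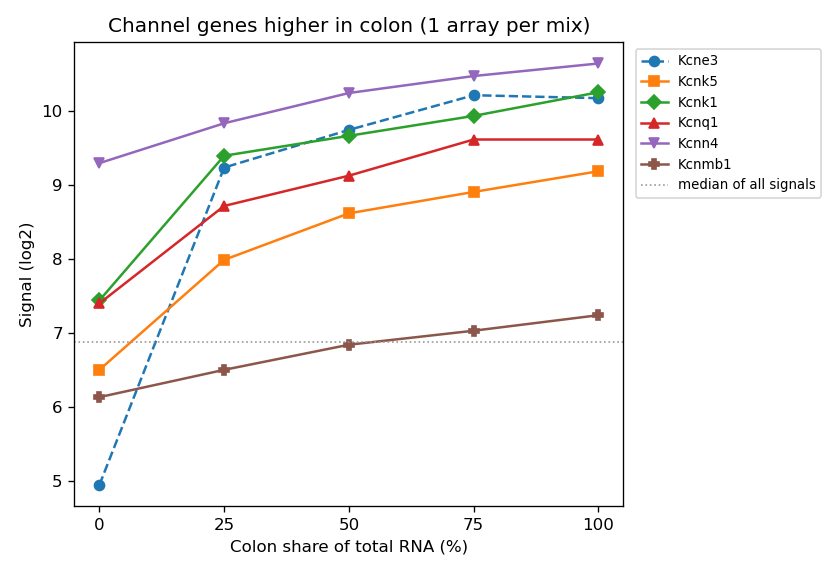
Log2 signal (vertical axis) against the colon share of total RNA (horizontal axis, percent) for the 5 channel genes that rose and for Kcne3 (dashed, not past the threshold), 1 array per point; the dotted line is the median of all signals, 6.88. Kcne3 climbs from 4.94 to 9.24 between the first arrays, while Kcnn4 and Kcnmb1 rise over ranges of 1.35 and 1.11.

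The sequences just upstream of the start sites are shown for the colon-high genes held in the RefSeq promoter table (build GRCm38.p6), together with Kcnmb4, so that the auxiliary subunits Kcnmb1 and Kcnmb4, which changed in opposite directions, can be set side by side. Each is the 250 bases before the annotated start, 5′ to 3′ on the gene's strand. Capitals mark the GC box, searched as GGGCGG on both strands (CCGCCC on the strand shown).
Kcne3, chr7:100176420-100176669, plus strand: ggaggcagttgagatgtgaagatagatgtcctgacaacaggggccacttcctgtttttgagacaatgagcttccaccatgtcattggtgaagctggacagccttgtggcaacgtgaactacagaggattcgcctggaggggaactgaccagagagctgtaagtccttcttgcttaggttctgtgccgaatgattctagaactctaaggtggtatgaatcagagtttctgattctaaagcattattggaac
Kcnk1, chr8:125994852-125995101, plus strand: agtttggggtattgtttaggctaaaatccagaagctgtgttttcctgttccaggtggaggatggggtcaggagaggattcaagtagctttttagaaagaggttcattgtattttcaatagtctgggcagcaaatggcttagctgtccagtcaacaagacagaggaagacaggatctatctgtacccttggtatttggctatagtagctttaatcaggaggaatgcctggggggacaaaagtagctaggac
Kcnk5, chr14:20181783-20182032, minus strand: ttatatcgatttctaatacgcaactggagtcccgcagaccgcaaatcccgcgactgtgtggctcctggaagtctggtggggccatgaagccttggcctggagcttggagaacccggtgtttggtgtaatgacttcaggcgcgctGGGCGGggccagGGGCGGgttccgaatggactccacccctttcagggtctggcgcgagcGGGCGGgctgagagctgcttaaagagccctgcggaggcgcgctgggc
Kcnn4, chr7:24370013-24370262, plus strand: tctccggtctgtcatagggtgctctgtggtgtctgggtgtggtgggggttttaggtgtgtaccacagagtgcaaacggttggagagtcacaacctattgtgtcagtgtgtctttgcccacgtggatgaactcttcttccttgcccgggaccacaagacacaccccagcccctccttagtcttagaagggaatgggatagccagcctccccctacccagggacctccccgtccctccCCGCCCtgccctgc
Kcnmb1, chr11:33962763-33963012, plus strand: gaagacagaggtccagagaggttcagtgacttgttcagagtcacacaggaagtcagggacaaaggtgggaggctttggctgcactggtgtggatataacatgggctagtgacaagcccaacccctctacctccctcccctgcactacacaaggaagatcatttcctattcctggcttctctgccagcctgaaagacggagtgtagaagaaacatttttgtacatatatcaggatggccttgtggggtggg
Kcnmb4, chr10:116473524-116473773, minus strand: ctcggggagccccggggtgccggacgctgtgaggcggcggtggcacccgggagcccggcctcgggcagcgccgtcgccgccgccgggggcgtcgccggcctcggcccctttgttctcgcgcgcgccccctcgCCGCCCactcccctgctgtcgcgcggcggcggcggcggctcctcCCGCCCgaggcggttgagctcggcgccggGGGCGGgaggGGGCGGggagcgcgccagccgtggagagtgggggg
For Kcne3, which has 2 listed starts, the upstream one is shown. The GC box occurred 3 times before Kcnk5, 1 time before Kcnn4 and 4 times before Kcnmb4, and not in these windows of Kcne3, Kcnk1 or Kcnmb1. Of all 32851 start sites in the table, 32.7% had the box in the same window, as did 43.1% of the 102 start sites listed for 74 of the channel genes. CpG pairs numbered 3 for Kcne3, 0 for Kcnk1, 19 for Kcnk5, 6 for Kcnn4, 1 for Kcnmb1 and 43 for Kcnmb4, against a median of 6 over all start sites.

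Among the beta subunits of the large-conductance, calcium- and voltage-activated potassium channel, Kcnmb1 rose, Kcnmb4 fell and Kcnmb2 did not pass. Kcnmb1 codes for the beta subunit of smooth muscle, which raises the channel's calcium sensitivity and so dampens contraction. Its log2 signals were 6.13 in whole mouse, 6.50, 6.84 and 7.03 in the mixtures and 7.24 in colon. Each step was upward, and the first 2 were wider than the later ones. The fitted rise was 1.10 log2 (SE 0.12, adjusted p = 0.00788, undiluted arrays 2.17-fold apart), and the call held without each array in turn. Its other probe set measured 6.25 for whole mouse against 6.73 for colon and did not pass (adjusted p = 0.202).

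Kcnmb4, the beta subunit best known from neurons, had 7.64 in whole mouse, 7.37, 6.87 and 6.19 in the mixtures and 6.50 in colon. The lowest signal was that of the 75% mixture and not of colon. It fell by 1.38 log2 (SE 0.29, adjusted p = 0.0346), a call lost without the whole mouse array (0.172), the 25% mixture (0.0866) or the 50% mixture (0.0891). The pore they share, Kcnma1, lay between 6.42 and 6.56 log2 in its brightest probe set (adjusted p = 0.468) and at or below 3.42 in its other. Another beta subunit, Kcnmb2, had 6.70 and 6.86 in the undiluted RNAs (adjusted p = 0.358). Beside Kcnmb1, the 8 visceral smooth muscle markers had a summed intensity of 11418 in whole mouse and 32970 in colon. Of these markers 3 rose (37.5%, against 9.8% of all genes) and none fell. Kit and Ano1, markers of the interstitial pacemaker cells of the gut, rose by 1.21 and 1.18 log2. The part of these cells in the rise of Kcnmb1 was not tested.

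The farthest fall belonged to Scn3b, an auxiliary beta subunit of voltage-gated sodium channels that is abundant in the developing nervous system. Its log2 signals were 9.69 in whole mouse, 9.19, 8.40 and 7.52 in the mixtures and 6.55 in colon. The signal stepped down with every addition of colon RNA. It fell by 3.17 log2 (SE 0.18, adjusted p = 0.00386), the undiluted arrays lay 8.78-fold apart, and the call held without each array in turn. Its other probe set did not follow, at 5.43 for whole mouse against 5.31 for colon (fitted difference 0.00, adjusted p = 1). Scn3b was the only beta subunit of the sodium channels among the 93 genes.

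The pore-forming sodium channel genes showed no matching fall. None of the 8 (Scn1a, Scn2a, Scn3a, Scn7a, Scn8a, Scn9a, Scn10a and Scn11a) passed, with fitted differences from −0.57 to 0.19 log2. Their brightest probe set, that of Scn11a, a channel of pain-sensing and enteric neurons, had 7.29 in whole mouse, 7.07, 6.90 and 6.59 in the mixtures and 6.94 in colon (fitted −0.47, SE 0.22, adjusted p = 0.215). The other 7 were dim on every array, below 6.88 log2, so a difference could be missed.

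By their brightest probe sets, the calcium channel genes that passed were all higher in whole mouse, and each belonged to a different subunit class. Dimmer probe sets of Cacnb1, Cacng6 (a second gamma gene) and Cacna1a (a second alpha1 gene) also fell and are described below. Cacng1, the gamma subunit of the calcium channel of skeletal muscle, had log2 signals of 9.19 in whole mouse, 8.84, 8.15 and 7.34 in the mixtures and 6.51 in colon. It stepped down throughout. It fell by 2.75 log2 (SE 0.19, adjusted p = 0.0042, undiluted arrays 6.41-fold apart). Cacna2d3, an alpha2delta subunit that brings channels to the membrane, chiefly in neurons, had 7.07, 6.62, 6.17, 5.97 and 5.30 in order of rising colon share. It too was lower at each step. It fell by 1.67 log2 (SE 0.14, adjusted p = 0.00542, 3.39-fold).

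Cacna1g, the pore of a low-voltage-activated (T-type) calcium channel of neurons and developing heart, had 7.79, 7.51, 7.25, 6.86 and 6.34. It was lower at each step. It fell by 1.42 log2 (SE 0.13, adjusted p = 0.00644, 2.74-fold). All 3 calls held without each array in turn. The other 7 alpha1 genes (Cacna1a to Cacna1f and Cacna1h) had fitted differences from −0.05 to 0.27 log2, none of which passed. Cacna1c, the pore of the L-type channel of heart and smooth muscle, lay between 5.31 and 6.00 log2 (adjusted p = 0.572), a dim signal in which little could be seen.

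Among the remaining calcium channel genes, the beta subunits Cacnb1, Cacnb2 and Cacnb4 did not pass in their brightest probe sets. Cacnb1, the beta subunit of skeletal muscle, had 6.79 in whole mouse, 6.52, 6.43 and 6.52 in the mixtures and 6.52 in colon there (adjusted p = 0.398). In that probe set only whole mouse stood slightly above the rest. Another probe set of Cacnb1, brighter in whole mouse (7.24), fell by 2.22 log2 and is described below. The 7 other gamma genes ran from −0.63 to 0.30 log2 and the other alpha2delta genes, Cacna2d1 and Cacna2d2, from −0.25 to 0.02. Several of the gamma genes, such as Cacng2 and Cacng8, code for proteins known mainly as partners of glutamate receptors in brain.

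**Figure D3:**
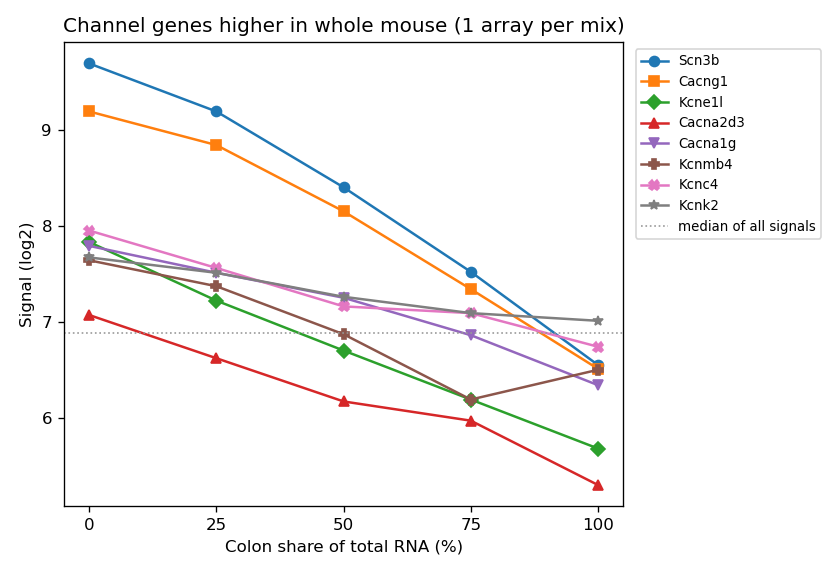
Log2 signal (vertical axis) against the colon share of total RNA (horizontal axis, percent) for the 8 channel genes that fell, 1 array per point; the dotted line is the median of all signals, 6.88. Scn3b and Cacng1 start above 9 and end near 6.5, and Kcnmb4 is the only one of the 8 whose lowest point is not the colon array.

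Kcne1l and Kcnc4 completed the falls. Kcne1l (also named Kcne5) codes for an auxiliary subunit that restrains Kcnq1 and is known from heart. Its log2 signals were 7.83, 7.22, 6.70, 6.19 and 5.68 in order of rising colon share. Every step was downward. It fell by 2.13 log2 (SE 0.10, adjusted p = 0.00357, 4.44-fold), and the call held without each array in turn. Kcne3 and Kcne1l, both partners of Kcnq1, thus lay at opposite ends of the Kcne genes. Kcne1, Kcne2 and Kcne4, the other members, had 4.62, 4.83 and 8.70 in whole mouse and 4.21, 4.72 and 8.57 in colon, and did not pass (adjusted p = 0.158, 0.498 and 0.506).

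Kcnc4 codes for a fast voltage-gated pore found in skeletal muscle and neurons. It had 7.95, 7.56, 7.16, 7.09 and 6.74. The signal was lower at each step. It fell by 1.16 log2 (SE 0.14, adjusted p = 0.00969, 2.32-fold), and missed the threshold without the whole mouse array (0.0552) or the colon array (0.0713). Its other probe set had 7.52 and 7.20 in the undiluted RNAs and did not pass (adjusted p = 0.51).

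Markers of nerve and striated muscle moved with the falls. Of 10 neuronal markers 6 fell (60%, against 14.5% of all genes) and none rose. Their summed intensity went from 4253 in whole mouse to 853 in colon. The 8 skeletal muscle markers went from 68713 to 638, and 2 fell (25%). The 8 heart markers went from 17378 to 736, and 6 fell (75%). All 8 skeletal muscle markers and 7 of the heart markers were at least 2-fold higher in whole mouse, against 10.4% of all genes. The part of these tissues in the falls of Scn3b, Cacng1, Cacna1g, Cacna2d3, Kcne1l, Kcnc4, Kcnmb4 and Kcnk2 was not tested. Of 4 glial markers Fabp7 and S100b fell (50%) and Mbp rose (25%, against 9.8% of all genes). The summed intensity of the glial markers was 1230 in whole mouse and 809 in colon. No marker was at 0, since the normalization leaves no zero.

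The classic voltage-gated potassium pores and the inward rectifiers were mostly dim, so a difference could be missed. Only 2 of 12 pore genes of the Kcna, Kcnc and Kcnd families exceeded the median of all signals on any array. Of 13 inward rectifiers 1 did, against 68.6% of all genes. Of the 12 pore genes only Kcnc4 passed, by falling (8.33%, against 14.5% of all genes). The other 11 had fitted differences from −0.76 to 0.24 log2. The lowest of those was Kcnd2, a pore of transient outward current, with 5.34 in whole mouse, 5.46, 4.98 and 4.73 in the mixtures and 4.75 in colon (adjusted p = 0.052). Its dimmer probe sets had fitted differences of 0.29 and −0.36 log2. The silent subunits Kcns1 and Kcns2, which form no channel alone, did not pass. Kcns1 had 5.62, 5.21, 5.47, 5.56 and 5.62, and its undiluted values lay 0.01 apart. None of 13 inward rectifiers passed (9.8% of all genes rose and 14.5% fell), and their differences ran from −0.54 to 0.16 log2.

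Kcnj8, the pore of the ATP-sensitive potassium channel of blood vessels, was the only inward rectifier above the median signal. It had 8.92, 8.92, 8.77, 8.72 and 8.54 log2 in order of rising colon share. The colon array was lowest, by a small margin. The fitted difference was −0.38 log2 (SE 0.10, adjusted p = 0.0616), which passed once dim probe sets were left out (0.0446) and when a gene's probe sets were averaged (0.0475). Among the auxiliary Kcnab and Kcnip genes none passed. Kcnab2, a cytoplasmic beta subunit, had the lowest of their differences, from 7.33 in whole mouse to 6.85 in colon (fitted −0.67, adjusted p = 0.0896). The other probe set of Kcnab2 had a fitted difference of 0.11 log2. Over the 79 genes that did not pass, Kcne3 apart, the differences ran from −0.76 to 0.46 log2.

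Of the 33 genes read by several probe sets, 7 had probe sets that differed in call. For Kcnc4, Kcnk5, Kcnmb1 and Scn3b the brightest probe set passed and another did not. For 3 genes, named after their values were seen, a dimmer probe set fell while the brightest did not pass. Of Cacnb1, 1 probe set that was dimmer by the mean of the arrays had 7.24 in whole mouse, above the 6.79 of the brightest. It had 7.13, 6.14 and 5.90 in the mixtures and 5.08 in colon, a fall of 2.22 log2 (limma adjusted p = 0.00864). The remaining probe set of Cacnb1 had a fitted difference of −0.19. Of Cacng6, the gamma subunit most like that of Cacng1, the dimmer probe set had 5.10, 4.52, 4.24, 3.86 and 3.53 and fell by 1.52 log2 (adjusted p = 0.00511). Of Cacna1a, the pore of the main calcium channel of nerve terminals, it fell by 0.79 log2 (adjusted p = 0.0441) from 4.88 to 4.19. All 3 are calcium channel genes. They were picked because a dimmer probe set fell, so the shared direction of those probe sets is not a result. Kcnk1 and Kcnn4 were the only genes with several probe sets that all passed.

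**Figure D4:**
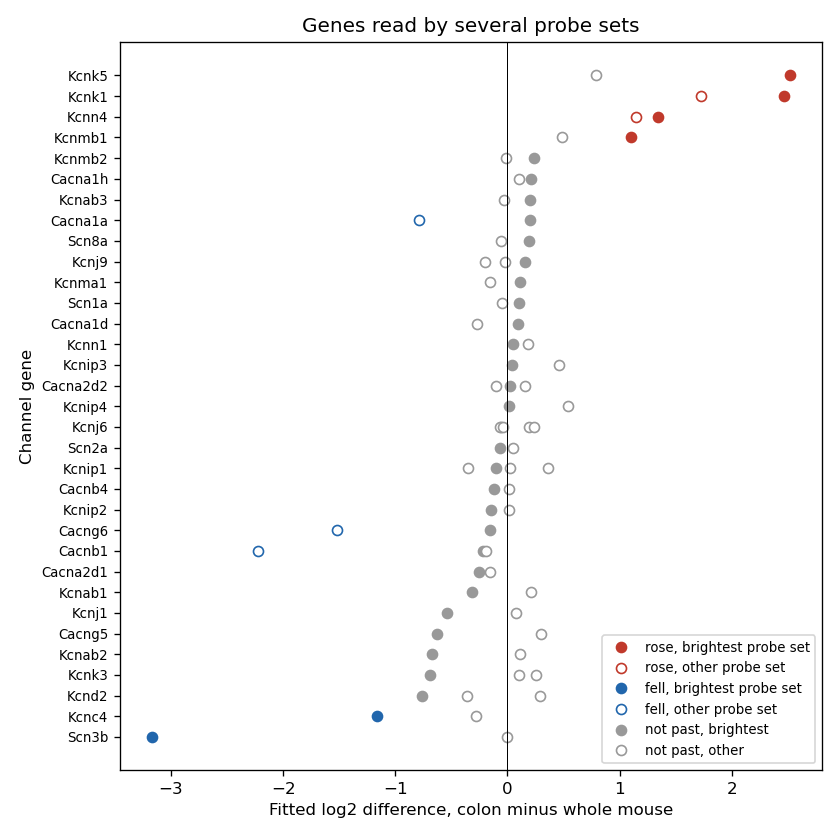
Fitted log2 difference (colon minus whole mouse, horizontal axis) of every probe set of the 33 channel genes read by more than 1, a row per gene; filled points are the brightest probe set, open points the others, red rose, blue fell and grey did not pass. Scn3b shows the widest split, at −3.17 and 0.00, and Cacnb1, Cacng6 and Cacna1a have a blue open point beside a grey filled one.

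The mixtures also gave the position of each gene between the undiluted arrays on the linear intensity scale, 0% being whole mouse and 100% colon. Kcnmb1 stood at 25.3%, 54.5% and 74.6% in the mixtures holding 25%, 50% and 75% colon, within 5 percentage points of the amounts mixed. Kcnn4 stood at 29.4%, 60% and 81%, and Kcnk5 at 33.1%, 61.2% and 78.8%. Kcnk1 stood at 47.5%, 60.7% and 76.9%, Kcnq1 at 40.8%, 63.4% and 99.7%, and Kcne3 at 51%, 73.9% and 103%. All of these but Kcnmb1 were above the amount mixed in each of the 3 mixtures. The 25% mixture of Kcne3 was 0.96 log2 above the weighted mean of its undiluted intensities.

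Over all 1853 probe sets at least 2-fold higher in colon the medians were 43.1%, 62.6% and 73.2%. The median probe set was thus above the amount mixed at 25% and 50% colon too. In the 25% mixture Kcnq1, Kcnk5, Kcnn4 and Kcnmb1 lay below the median of 43.1%, and Kcne3 and Kcnk1 above it. Among the 7 falls at least 2-fold apart, the positions ran from 25.6% (Cacng1) to 44.9% (Kcne1l) at 25% colon, from 49.3% (Cacna1g) to 75.6% (Kcnmb4) at 50% and from 74.7% (Cacna1g) to 116% (Kcnmb4) at 75%. The medians of the 1763 probe sets at least 2-fold higher in whole mouse were 35.9%, 62.7% and 80.6%.

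**Figure D5:**
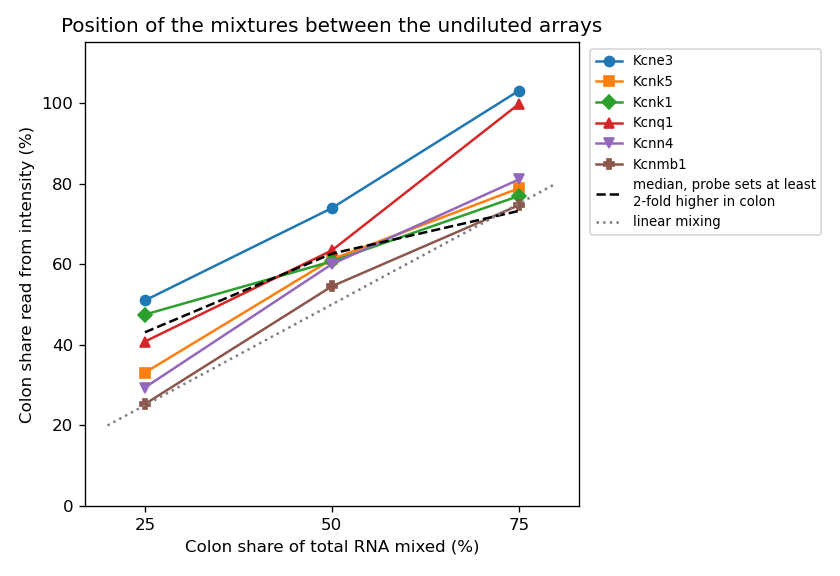
Colon share read from the linear intensity, as the distance from the whole mouse array over the distance between the undiluted arrays (vertical axis, percent), against the colon share mixed (horizontal axis, percent) for Kcne3 and the 5 genes that rose; the dashed line is the median of 1853 probe sets at least 2-fold higher in colon and the dotted line is linear mixing. Kcnmb1 follows the dotted line and Kcne3 lies above every other gene in all 3 mixtures.

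Some of the channel genes follow one another by start coordinate, gene ends not being considered. In 15 pairs of channel genes no start coordinate of another protein-coding gene fell between those of the partners in the RefSeq annotation. In 13 of these neither gene passed, and in the other 2 only 1 did. Few channel genes passed at all, so these counts are given as a description. Cacng1, which fell by 2.75 log2, was paired with Cacng4 (−0.11, not past the threshold). Kcnmb1, which rose by 1.10, was paired with Kcnip1 (−0.10, not past the threshold). The sodium channel genes Scn1a, Scn9a and Scn7a, which follow one another by start coordinate, had fitted differences between −0.18 and 0.10 log2.

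Of 42 genes listed as partners of these channels, 25 were measured, of which 3 rose (12%, against 9.8% of all genes) and 4 fell (16%, against 14.5%). Lrrc26, an auxiliary subunit that lets the large-conductance potassium channel open at low calcium, had log2 signals of 6.64 in whole mouse, 8.86, 9.46 and 9.88 in the mixtures and 9.94 in colon. It stood more than 2 log2 units higher from the first mixture on. It rose by 3.04 log2 (SE 0.73, adjusted p = 0.0479). Sgk1, an aldosterone-induced kinase, rose by 2.34 log2 (adjusted p = 0.0395), and Nedd4l, a ubiquitin ligase that removes sodium channels from the membrane, by 1.10 (adjusted p = 0.0287).

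On the other side stood Ryr1, the calcium release channel of skeletal muscle, which fell by 4.75 log2 (SE 0.94, adjusted p = 0.0303). Atp1b2, a sodium pump beta subunit of glia and muscle, fell by 1.44 (adjusted p = 0.0109), Rrad, a small GTPase that inhibits calcium channels, by 1.39 (adjusted p = 0.0118), and Fgf13, an intracellular sodium channel partner of neurons, by 1.22 (adjusted p = 0.00957). Atp1b1, the sodium pump beta subunit of epithelia, went from 11.87 in whole mouse to 13.55 in colon without passing (adjusted p = 0.0787). Abcc8 and Abcc9, the sulfonylurea receptors that complete ATP-sensitive potassium channels, did not pass (adjusted p = 0.369 and 0.957).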

How the data were processed

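The deposited table holds log2 signals of 22690 probe sets that the authors made with RMA, per the submitters' processing notes, which give no version here. The 64 control probe sets were set aside. The other 22626 were fitted in R 4.3.3 with limma 3.58.1 as a straight line over the colon share (0 to 1), over 5 arrays with 3 residual degrees of freedom, with moderated variances. The 2-sided p-values of these 22626 probe sets were adjusted together (Benjamini-Hochberg) and called at 0.05. They measure technical spread and curvature over mixes of the same pools, not the spread between mice. A straight line in log2 does not follow RNA mixed on the linear scale, so a gene far apart between the pools can miss the threshold. Examples are Myh8 (undiluted difference −8.13 log2, limma adjusted p = 0.129) and Car1 (7.39 log2, adjusted p = 0.174). Values exactly equal on 2 or more arrays occurred in 46.2% of channel genes and 36.9% of all genes.

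Probe sets were named through the array's annotation, and all 93 genes were matched to RefSeq by gene identifier (GRCm38.p6). Named in the text are all channel genes past the threshold, those that missed it despite a gap of 2-fold or more between the undiluted RNAs, and the brightest gene of any role group left without one, beside examples chosen after their values were seen. Members, lists and roles were chosen with earlier results of these data known. The fit was also run on simulated data whose changes were straight lines in log2. That run did not cover curved changes like those of the mixtures. Alternatives were array centring, quantile normalization, leaving out dim probe sets, an intensity trend, averaging probe sets and leaving out each array.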

Additional observations from a re-analysis of the deposited data

How the results depend on the processing

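The 13 genes that rose or fell were all called again, in the same direction, when arrays were centred on their medians, when they were quantile normalized, when dim probe sets were left out, when the variance followed an intensity trend and when a gene's probe sets were averaged. These alternatives gave 5 rises each and between 8 and 11 falls. The added calls were Kcnd2 under both scalings, Kcnj8 without dim probe sets, and Cacnb1 (−0.88 log2, adjusted p = 0.0197), Cacng6 and Kcnj8 with averaged probe sets. The filter on dim probe sets left the signals and slopes of the 13 genes as they were, since all 13 were above its limit. Averaging acted only on those of the 13 with several probe sets, and it made each of their slopes smaller. That of Scn3b went from −3.17 to −1.59 log2 and that of Kcnk5 from 2.52 to 1.65. Leaving out 1 array gave between 1 and 4 rises and between 5 and 7 falls. Each such fit had fewer arrays. The same 6 genes (Cacna1g, Cacna2d3, Cacng1, Kcne1l, Kcnmb1 and Scn3b) passed without each array in turn. Counts of genes with a gap of 2-fold or more between the undiluted RNAs moved by at most 1. No paired analysis was possible because each mix had 1 array. The dim signals of 66 genes limit what could be seen.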
